A study of Homo sapiens with 6 samples.

Results

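MSI2 carried 18 of the 16269 clusters (binding sites) called over 6 PAR-CLIP libraries of myc-tagged hnRNP A1, all of them inside MSI2 introns and all but 1 from the monomeric wild-type protein. The members were found by position alone, as the clusters on the + strand of chromosome 17 between 55333000 and 55763000 (hg19), the stretch that holds the MSI2 gene (ENSG00000153944, 55333212 to 55762050, 428.8 kb). MSI2 was chosen by its number of clusters, since earlier results of these data showed many of the monomeric wild-type protein there and none of the mutant, so its numbers of clusters per library are a description and were not tested. The libraries came from HEK293T cells, a human embryonic kidney line, that had been transiently transfected with myc-tagged protein and grown with 4-thiouridine. RNA was recovered by anti-myc precipitation from 3 protein bands, with 2 libraries each. A1-HMW was the slower band of wild-type hnRNP A1, which the authors describe as possibly a dimer. A1dm was the monomeric band of a double mutant, in which a pair of arginines was replaced by aspartates to break salt bridges, and A1 was the monomeric band of wild-type hnRNP A1. Both the wild-type and the mutant protein were expressed from plasmids beside the cells' own hnRNP A1. The lists give the position and strand of each cluster but no number of reads, and they hold no measure of RNA level, so neither the amount of MSI2 transcript nor the markers of the cell line could be read from them.

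MSI2 encodes Musashi-2, an RNA binding protein with paired RNA recognition motifs that binds mRNAs, mostly in their 3′ untranslated regions, and controls their translation and stability. It is known for its role in blood stem cells and in leukemia. HnRNP A1 is an abundant nuclear RNA binding protein that packages nascent transcripts and influences the choice of splice sites, with UAGGG as its classical binding motif. PAR-CLIP locates its contacts through 4-thiouridine, a uridine analog that cross-links to bound protein under ultraviolet light and is then read as C, so that a cluster has to contain a T in the genome.

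The clusters of the 2 A1 libraries fell on 12 separate regions of MSI2, numbered here as sites 1 to 12 in the direction of transcription. A region is a stretch covered by A1 clusters of 1 strand that share at least 1 nucleotide. The 5 sites found in both A1 libraries are printed first, to show the sequences that recurred, each with 15 nucleotides of hg19 on either side in lower case and the site itself in capitals.

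Site 1 (chr17:55336424-55336448, intron 4): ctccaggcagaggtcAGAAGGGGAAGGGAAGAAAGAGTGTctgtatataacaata

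Site 3 (chr17:55353096-55353120, intron 5): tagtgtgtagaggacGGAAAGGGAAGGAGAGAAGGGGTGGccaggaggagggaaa

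Site 5 (chr17:55380315-55380339, intron 5): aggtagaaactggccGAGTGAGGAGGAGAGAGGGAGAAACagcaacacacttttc

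Site 8 (chr17:55527541-55527565, intron 6): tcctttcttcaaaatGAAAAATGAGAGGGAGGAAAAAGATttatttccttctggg

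Site 10 (chr17:55542909-55542931, intron 6): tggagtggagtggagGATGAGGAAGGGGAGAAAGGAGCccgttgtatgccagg

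Site 10 was the site that A1-HMW shared. For contrast, the next 4 are the sites nearest to the 5′ end of the gene among those of 1 A1 library. Sites 2, 4 and 7 came from replicate 2 and site 6 from replicate 1.

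Site 2 (chr17:55349209-55349226, intron 5): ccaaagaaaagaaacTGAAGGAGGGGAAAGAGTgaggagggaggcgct

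Site 4 (chr17:55360909-55360930, intron 5): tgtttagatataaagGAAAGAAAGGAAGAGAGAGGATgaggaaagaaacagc

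Site 6 (chr17:55446998-55447019, intron 5): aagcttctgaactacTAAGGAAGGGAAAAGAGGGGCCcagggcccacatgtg

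Site 7 (chr17:55452941-55452965, intron 5): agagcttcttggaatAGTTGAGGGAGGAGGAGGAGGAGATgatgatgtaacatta

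Longer lists held more MSI2 clusters. A1-HMW had 0 MSI2 clusters among 671 in replicate 1 and 1 among 865 in replicate 2. A1dm had 0 among 232 and 0 among 596, and A1 had 6 among 5805 and 11 among 8100. Both A1 libraries lay above all 4 others. Per 1000 clusters of a library, MSI2 took 0 and 1.16 in A1-HMW, 0 and 0 in A1dm, and 1.03 and 1.36 in A1. The 95% Wilson intervals, which cover counting error only, reached 5.69 and 6.52 per 1000 in A1-HMW and 16.3 and 6.40 in A1dm, and ran from 0.474 to 2.25 and from 0.758 to 2.43 in A1. The intervals of all 6 libraries therefore overlapped. The mean number per library was 0.50 ± 0.71 for A1-HMW, 0 for A1dm and 8.5 ± 3.5 for A1 (SD, n = 2 each). Had MSI2 taken the same share as in A1, the A1-HMW lists together would have held 1.88 MSI2 clusters and the A1dm lists 1.01, against 1 and 0 found. A count of 0 allows up to 3 clusters, or 1.29 and 0.503% of the 2 A1dm lists, which were too short to show a difference from A1. MSI2 was chosen for its many A1 clusters and 0 A1dm clusters. The shares, intervals and numbers at the A1 share are therefore descriptions only. No permutation test was run, and the smallest two-sided p that an exact unpaired one allows at 2 libraries a group is 0.33.

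**Figure D1:**
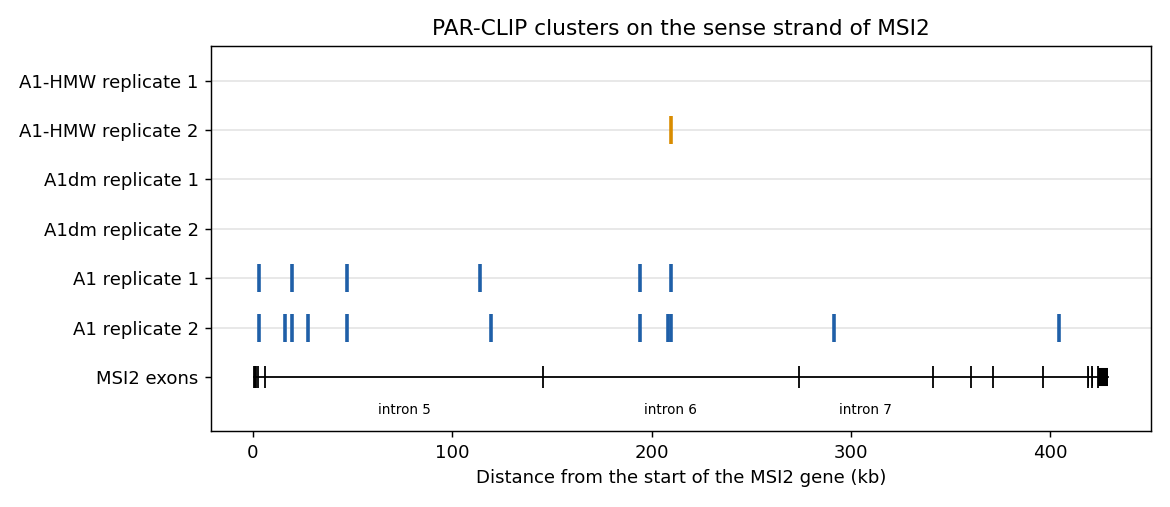
Clusters on the sense strand of MSI2 in each of the 6 libraries (rows), by distance from the start of the gene in kb, with the exons of the canonical transcript as black bars and the 3 longest introns named below. A1 replicate 1 shows 6 ticks, A1 replicate 2 shows 11 and A1-HMW replicate 2 shows 1, while the rows of A1-HMW replicate 1 and both A1dm libraries are empty.

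Recurrence between the A1 libraries was near that of the whole lists. Of the 12 MSI2 regions, 5 held a cluster in both A1 libraries (41.7%, Wilson interval 19.3 to 68.0%), against 31.5% of the 10574 A1 regions of the series. From replicate 1, 5 of 6 MSI2 clusters recurred in replicate 2, against 57.4% of all its clusters. From replicate 2, 5 of 11 recurred in replicate 1, against 41.1%. The Wilson intervals of the MSI2 shares contained the share of the whole list in each case. Of the 7 sites seen in 1 A1 library, 1 was from replicate 1 and 6 were from replicate 2, the longer list.

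Starts and ends of the recurrent sites differed by at most 2 nucleotides between the A1 libraries. The start was identical in 5 of 5, and the end was identical in 2 of 5 (40%), with a largest difference of 2 nucleotides. Over all 3331 overlapping pairs of A1 clusters, 64.1% had the same start and 64.2% the same end, with end differences of up to 30 nucleotides. With 5 sites, the MSI2 shares are too coarse to set apart from these and were not tested. The A1-HMW cluster at site 10 ran from 55542909 to 55542931, exactly as in A1 replicate 2, and the cluster of A1 replicate 1 stopped at 55542929.

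The overlap of the other bands with MSI2 regions came down to a single cluster of A1-HMW. An A1-HMW cluster lay on 1 of the 12 MSI2 regions (8.33%, Wilson interval 1.49 to 35.4%), against 9.01% of all A1 regions. An A1dm cluster lay on 0 of 12 (upper Wilson limit 24.2%), against 3.59%. Among regions of both A1 libraries, A1-HMW covered 1 of the 5 in MSI2, against 20.0% over the series. A1dm covered 0 of those 5, against 7.60%. The count of 0 for A1dm was used to choose MSI2, so it stands as a description. No A1-HMW or A1dm cluster lay in MSI2 outside an A1 region.

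Every site was intronic, and the longest introns held most of them. The canonical MSI2 transcript (ENST00000284073) has 14 exons and 13 introns, and 5 introns, which make up 85.6% of the intron length, held all 12 sites. Intron 5, of 139.2 kb, held 6 sites, 2 of them in both A1 libraries. Intron 6, of 128.2 kb, held 3 sites, 2 of them in both. Intron 4, of 3.80 kb, held site 1, which recurred, and introns 7 and 11 (67.1 and 22.8 kb) held 1 site each, from replicate 2. The other 8 introns, 60.6 kb in all, held 0 sites. Per 100 kb this came to 4.31 sites in intron 5 and 2.34 in intron 6. Introns 4, 7 and 11, with 1 site each, had too few for a rate.

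All sites lay more than 300 nucleotides from an exon, and several had close neighbors. The nearest exon of any of the 31 annotated MSI2 transcripts was 0.709 to 20.8 kb away, with a median of 4.63 kb. For all 6602 intronic A1 regions of the series, the median distance to an exon of the host gene was 2.63 kb. None of the 12 MSI2 sites lay within 300 nucleotides of an exon, as 12.2% of the intronic A1 regions did. The upper Wilson limit for 0 of 12 is 24.2%, so that share is within reach of the MSI2 count. The series takes in genes of all lengths, and distances were not compared at like intron length. Site 1 was the closest, 0.709 kb from an exon, and site 10, the site of 3 libraries, the farthest. With exons of the canonical transcript alone, the median distance was 23.6 kb. The gaps between neighboring sites ranged from 1.41 kb, between sites 9 and 10, to 112.9 kb, between sites 11 and 12, with a median of 13.9 kb. A total of 7 of the 12 sites had another A1 region within 10 kb on the same strand, against 24.2% of all A1 regions. MSI2 had been chosen for its number of clusters, so close neighbors there follow in part from the choice.

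Sites were more frequent toward the 5′ end of MSI2. Upstream of the midpoint of the gene lay 10 of the 12 sites, with 6 clusters of A1 replicate 1 and 9 of replicate 2. Downstream of it lay 2 sites, with 0 and 2 clusters. All 5 recurrent sites and the A1-HMW cluster were upstream of the midpoint, between 0.749 and 48.9% of the way along the gene. In genes of like length (214 to 858 kb) other than MSI2, 57.8% of 1999 pairs of an A1 region and its gene lay upstream of the midpoint, and 59.9% of the 568 pairs with a recurrent region. A region in overlapping genes was counted once for each. The split at the midpoint was chosen after the positions had been seen and was not tested.

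Site 8 was the exception to a plain assignment to MSI2. It lay in intron 6 of MSI2 and also in the exon of ENSG00000279281, a short unspliced entry of 2.07 kb on the same strand whose class (TEC) marks transcripts that await experimental evidence. The cluster lists cannot tell the transcripts apart. Without site 8, MSI2 held 5 clusters in A1 replicate 1 and 10 in replicate 2. The annotation deposited with the clusters names the gene of the nearest transcription start, and it gave site 11 to a noncoding gene and the other 11 sites to MSI2.

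The neighborhood of MSI2 was nearly empty on the same strand. In the 500 kb upstream, no library had a cluster on the + strand. In the 500 kb downstream, A1 replicates 1 and 2 had 1 cluster each, at the same nucleotides (56173833 to 56173859), in the TEC entry ENSG00000279207. The first MSI2 site lay 3.42 kb inside the interval and the last 25.2 kb inside it. The nearest A1 regions of the + strand outside it were 1497 kb upstream and 410.8 kb downstream. MSI2 had 1.98 ± 0.82 A1 clusters per 100 kb, and the 2 flanks together 0.10 in each library (SD, n = 2 libraries), a ratio of 19.8. The exact 95% Poisson interval in MSI2 was 0.512 to 3.04 per 100 kb in replicate 1 and 1.28 to 4.58 in replicate 2. The density and the ratio follow in part from the choice of MSI2 by its number of A1 clusters and were not tested.

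Most of the flanks is not annotated as transcribed from that strand. Genes of the + strand covered 155.0 of the 1000 kb of flank. Within them the density was 0.645 A1 clusters per 100 kb, which made MSI2 3.07 times denser. The flank value rests on 1 cluster in each A1 library, so this ratio is imprecise. Like the ratio to the whole flanks, it is a description, since MSI2 was chosen by its clusters. The 6 protein-coding genes of the + strand in the flanks, among them AKAP1, an anchor protein of mitochondria, SCPEP1, a serine carboxypeptidase, and DGKE, a diacylglycerol kinase, had 0 clusters in all 6 libraries. DYNLL2, a dynein light chain, OR4D1 and OR4D2, olfactory receptor genes, also had 0. On the opposite strand, the flanks held 5 clusters in each A1 library, 1 in each A1-HMW library and 1 in A1dm replicate 2. They included COIL, which encodes the Cajal body protein coilin, and AKAP1-DT, with 1 cluster each in A1 replicate 2. The cluster of A1dm replicate 2 lay in SRSF1, a splicing factor gene. Others were in the noncoding ENSG00000265542, with 4 clusters over A1-HMW replicate 1 and both A1 libraries, and in ENSG00000266086, which overlaps ENSG00000264112 and SRSF1 and held 4. Inside the MSI2 interval, the antisense strand held 0 clusters in all 6 libraries, and annotated genes covered 9.48 kb of it.

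**Figure D2:**
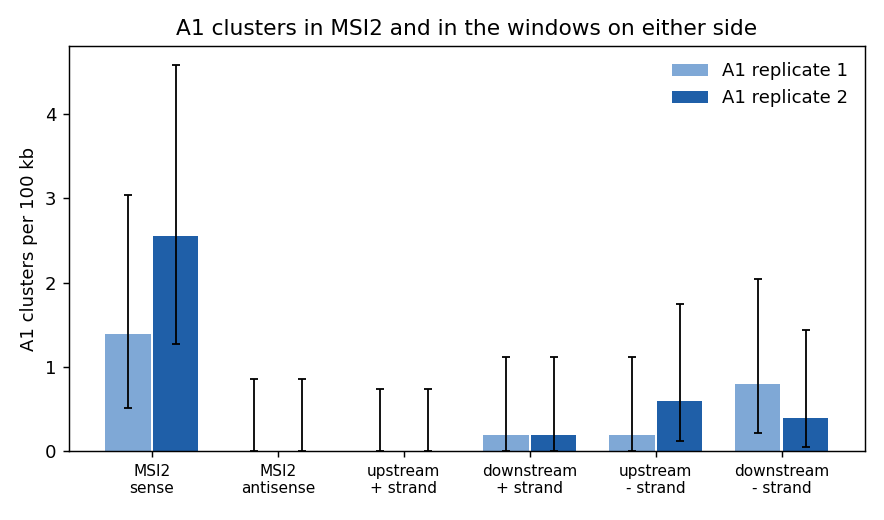
A1 clusters per 100 kb (vertical axis) on each strand of the MSI2 interval and of the 500 kb windows on either side, for A1 replicate 1 (light) and replicate 2 (dark), with exact 95% Poisson intervals that cover counting error only. The sense strand of MSI2 reaches 1.40 and 2.56, and its antisense strand, of which annotated genes cover 9.48 kb, is at 0.

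Each site was built around an uninterrupted run of purines. A and G made up 91.6% of the bases of the MSI2 sites, against 90.4% in all A1 regions and 49.3% over the sense strand of MSI2 in windows of 24 nucleotides. The longest run of A or G in a site was 16 to 23 nucleotides, with a median of 19.5, against a median of 19 in all A1 regions. All 12 sites held a run of at least 15, as did 93.0% of A1 regions. In site 1 the run spans 22 nucleotides and is followed by TGT. In site 8, a T splits the purines and the longest run is 17. Sites of both A1 libraries (median run 20, n = 5) and of 1 library (median 19, n = 7) overlapped in run length.

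The words that recur in A1 regions were found in some of the sites. GAGGAA was in sites 8, 9 and 10 (25%), against 32.9% of all A1 regions and 0.837% of windows of 24 nucleotides tiling MSI2. AGGAAG was in 5 sites (41.7%), against 32.4% of all A1 regions and 1.23% of the windows. Words were searched on the sense strand, and they overlap in GAGGAAG, as in sites 9 and 10. Either word was in 6 sites, so the other 6, including the recurrent sites 1, 3 and 5, held neither. The windows were 49.3% purine and the sites 91.6%, so the windows are no background of like composition for words of purines alone. Of the purine runs on the sense strand of MSI2, either word was in 79 of the 431 of 12 or more nucleotides. It was in 21 of the 108 of 15 to 19 and in 11 of the 52 of 20 or more. TAGGG, the DNA form of the classical motif, was in 0 of the 12 sites, 2.49% of all A1 regions and 1.66% of the windows.

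The T that PAR-CLIP needs stood mostly at the 3′ edge of the purines. In 8 of the 12 sites the last base was T, as in 53.4% of all A1 regions, and 11 ended in a pyrimidine. Sites 5, 6 and 10 each held their only T near the 5′ end, at position 21 or 22 counted from the 3′ end. A total of 6 sites held a single T, the only base at which a T-to-C change could be read, among them site 4, with its T at the last position, and site 3, with its T in the third position from the 3′ end. All 12 sites held a T with the start taken from the cluster's identifier. With the start as listed, 1 nucleotide further downstream, 11 did, since the T of site 6 is its first base.

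**Figure D3:**
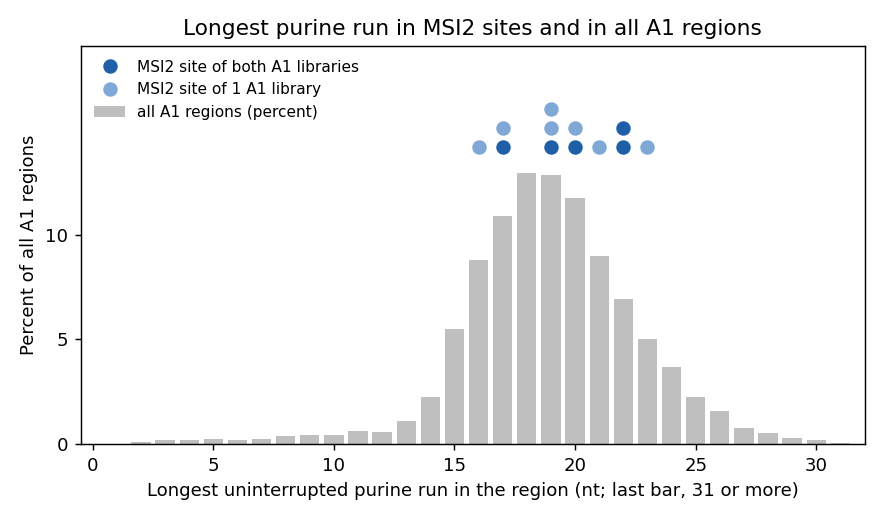
Longest uninterrupted run of A or G in each region, in nucleotides (horizontal axis). Bars give the percent of all A1 regions at each length, and the points stacked above them, whose height carries no value, are the 12 MSI2 sites, dark for sites of both A1 libraries and light for sites of 1; the sites lie between 16 and 23.

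Long purine runs were far more common in MSI2 than sites. The sense strand of the interval held 431 runs of 12 or more purines, and 12 of them (2.78%, Wilson interval 1.60 to 4.80%) overlapped an A1 region. Of 271 runs of 12 to 14, 0 did. Of 108 runs of 15 to 19, 6 did (5.56%, Wilson interval 2.57 to 11.6%), and of 52 runs of 20 or more, 6 did (11.5%, 5.40 to 23.0%). The intervals of the longer classes overlapped. The longest run with a site had 25 nucleotides, and 15 runs were longer than that. A cluster has to contain a T, which the inside of a run lacks, so a long run without a site cannot be read as unbound. Whether reads can be placed uniquely in such runs was not examined. The longest of all, of 68 nucleotides, began 51 nucleotides past the end of site 8, and runs of 62 and 40 nucleotides lay 3704 and 3604 nucleotides before site 9.

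Purine runs were about as frequent around MSI2 and on its antisense strand as on its sense strand. The sense strand of MSI2 had 100 runs of 12 or more per 100 kb, its antisense strand 130, the upstream flank 96.2 and the downstream flank 112. On the antisense strand 0 of 559 runs overlapped an A1 region, and in the flanks 0 of 481 and 1 of 562 did. Annotated genes covered 9.48 of the 430 kb of the antisense strand and 155.0 of the 1000 kb of flank. Most of that sequence is thus not annotated as transcribed, unlike the sense strand of MSI2. Runs of 15 or more numbered 90 upstream of the midpoint of the gene and 70 downstream. Of these, 10 and 2 (11.1 and 2.86%, Wilson intervals 6.15 to 19.3% and 0.787 to 9.83%) held a site. Of the 84 runs of 15 or more followed by a T, 9 held a site (10.7%), and of the 76 followed by a C, 3 did (3.95%). Those intervals overlapped (5.74 to 19.1% and 1.35 to 10.97%).

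Among genes of like length, MSI2 was one of several with many A1 clusters. Of 1794 annotated genes of 214 to 858 kb, 761 held an A1 cluster, and the 760 other than MSI2 had a median of 2. With 17 A1 clusters, MSI2 stood level with DLEU1, a long noncoding RNA gene with 6 and 11 in replicates 1 and 2. It came after DTNA, which encodes a dystrophin-associated protein (11 and 13), CREB5, a transcription factor gene (8 and 12), TNRC6B, of microRNA silencing (8 and 12), and SRGAP3 (8 and 11). Summed over both A1 libraries, MSI2 had 3.96 clusters per 100 kb and the median of the others was 0.711, and 13 of them were denser. TNRC6B was the densest of them, at 6.87.

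Clusters of the other bands were found in part of these long genes. Of the 31 other genes of like length with 10 or more A1 clusters, 23 held an A1-HMW cluster (74.2%) and 13 an A1dm cluster (41.9%). Of all 760, 149 held an A1-HMW cluster and 76 an A1dm cluster. DTNA had 0 and 3 A1dm clusters, CREB5 0 and 2, and TNRC6B 1 and 0, while SRGAP3 and DLEU1, like MSI2, had 0 in both. Some of these genes overlap each other, and a cluster in a shared stretch was counted for each.

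**Figure D4:**
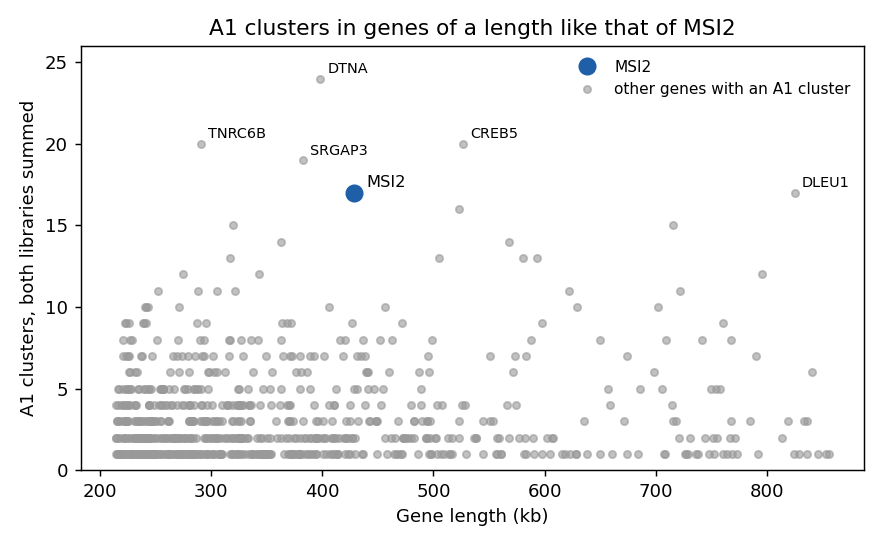
A1 clusters summed over both libraries (vertical axis) against gene length in kb for MSI2 (blue) and the 760 other genes of 214 to 858 kb with an A1 cluster (gray). MSI2 stands at 17, with DTNA, CREB5, TNRC6B and SRGAP3 above it and DLEU1 level with it.

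Relatives of MSI2 among the RNA binding proteins had 0 or 1 cluster per library. A list of 11 proteins with paired RNA recognition motifs like those of Musashi, MSI2 included, held 1 member with a cluster in each A1-HMW library, 1 and 2 in the A1dm libraries, and 2 and 4 in the A1 libraries. MSI2, which was chosen for its clusters, is the member counted in A1-HMW replicate 2. It is also 1 of those counted in each A1 library. As a background, 2.42 and 2.91% of all protein-coding genes had a cluster in the A1-HMW libraries, 0.927 and 2.12% in A1dm, and 14.8 and 18.1% in A1. MSI1, the closest relative and a marker of neural stem cells, had 1 intronic cluster, in A1 replicate 2. DAZAP1 had 1 in A1dm replicate 1 and 1 in A1 replicate 2. HNRNPDL, a paralog of HNRNPD, had an intronic region in both A1 libraries, and a cluster in A1-HMW replicate 1 and in A1dm replicate 2. HNRNPA1 itself had 1, in A1dm replicate 2, and since the cells carried a plasmid with its coding sequence, the source of that RNA is uncertain. Apart from MSI2, the other 6 members had 0. MSI2 is the longest gene of the list. Per 100 kb it had 2.80 A1 regions, against 12.7 in HNRNPDL, 3.59 in MSI1 and 3.56 in DAZAP1, each from 1 region in a short gene, and 0 in the other 7 members.

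Genes listed here as targets of Musashi proteins, or as linked to their function, were covered in part. Of 10 such genes, 1 had a cluster in each A1-HMW and each A1dm library, and 4 and 3 in the A1 libraries. Of all protein-coding genes, 2.42 and 2.91% had a cluster in A1-HMW, 0.927 and 2.12% in A1dm, and 14.8 and 18.1% in A1. Gene length was not taken into account, and the counts were not tested. That 1 gene was EIF4G1, a scaffold of translation initiation, with 2 and 1 clusters in A1-HMW, 1 and 1 in A1dm and 2 and 3 in A1. Of its 3 A1 regions, 1 lay in an exon. HOXA9, a homeobox gene active in leukemia, had 1 and 2 A1 clusters, with 1 of 2 regions in both libraries. SMAD3, of TGF-β signaling, had 1 in A1 replicate 1. A total of 6, among them NUMB, the Notch inhibitor, had 0. Clusters in these genes are contacts of hnRNP A1 and hold no measure of Musashi binding.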

How the data were processed

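The deposited files were lists of clusters that the authors called per library, without pooling. Per the methods, adapters were trimmed (BBduk), ribosomal reads removed and the remainder aligned with STAR, whereas the submitters' processing notes list Bowtie and the build hg19. The file headers name wavClusteR clusters annotated by HOMER with hg19 and Ensembl genes, and versions are not given in the sources used here. The deposited score was 0 in every line, so clusters were weighted alike, and the only measure of depth in these lists was their 232 to 8100 clusters. Read numbers and PARalyzer peaks were not used here. The binding sites that the paper reports are those peaks, and for A1-HMW and A1dm it reports more of them than these lists hold. Whether they include MSI2 sites of A1dm was not examined. The replicates are described as independent experiments.

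The start was taken from each cluster's identifier, 1 nucleotide below the listed column in 100% of the lines. Sites were placed on GENCODE genes lifted to hg19, and sequences were read from GRCh37, the same build. Clusters overlapped if they shared 1 nucleotide or more of a strand. Shares have Wilson intervals and densities exact Poisson intervals (scipy 1.17.1, Python 3.11.15), for counting error only. The merging, overlap and run counts returned the known answer in 4 of 4 checks on simulated data. Genes named were MSI2, the genes of the flanks, of 2 Musashi lists (1 member is not reported here) and the 5 genes of like length with most A1 clusters. The members and lists were chosen with earlier results of these data known. The flank genes without clusters, and the longest runs, were named after their values had been seen.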

Additional observations from a re-analysis of the deposited data

How the results depend on the processing

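A total of 49 alternatives were computed, of which 46 left a value within its spread or within 1.5 times, 3 moved it and 0 reversed a direction. The number of MSI2 regions was 6 to 11 with 1 A1 library left out, and 6 of the 12 came from replicate 2 alone, the longer list. Without A1-HMW replicate 2, A1-HMW covered 0 regions, since that library held the 1 cluster. With exons of the canonical transcript alone, the median distance to an exon was 23.6 kb, because exons of other transcripts lie inside its long introns. Overlap of at least 10 nucleotides, joining of clusters up to 50 nucleotides apart and the start as listed each gave 12 regions and 5 in both A1 libraries. The A1 density in MSI2 minus that in the flanks was 1.88 ± 0.82 per 100 kb (SD, n = 2), 1.98 and 1.90 with flanks of 250 and 1000 kb, 1.34 within annotated genes of the + strand, and 1.30 to 2.46 with 1 A1 library left out. The ratio of the 2 densities was not among the alternatives counted, and it fell from 19.8 to 3.07 within annotated genes of the + strand. No recurrence could be computed without an A1 library. No paired analysis was possible because the values come from no test, the gene having been chosen by them. The counts of each replicate stand side by side in the report. Without site 8, chosen after seeing the data, the A1 libraries held 5 and 10 clusters. The lists give no read numbers, so a site absent from a short list cannot be told apart from one too thinly covered to be called.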
